A study of Mus musculus with 75 samples.

Results

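The genes described here are 36 mouse genes of general homologous recombination and of the Fanconi anaemia pathway, the repair machinery that germ cells share with dividing somatic cells. They were chosen by name from the 26218 genes of the deposited expression table, with earlier results of these data known. All 36 were found: 34 under their own symbol and 2, Rad51b and Rad51d, by Entrez ID under the older symbols Rad51l1 and Rad51l3. The set holds the BRCA complex (Brca1, Bard1, Palb2, Brca2), the paralogs that assist strand exchange (Rad51b, Rad51c, Rad51d, Xrcc2, Xrcc3), partners of strand exchange (Rad51ap1, Rad54l, Rad54b), the Fanconi core complex (Fanca, Fancc, Fance, Fancf, Fancg, Fancl, Fancm) and the clamp it modifies (Fancd2, Fanci). It also holds the damage kinases with their mediators (Atm, Atr, Chek1, Chek2, Topbp1, H2afx, Mdc1), the enzymes that process break ends (Mre11a, Rad50, Nbn, Rbbp8), the helicases Blm and Brip1, and Mlh3 and Trip13, which also serve meiotic recombination.

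When a DNA double-strand break is repaired by homologous recombination, the MRE11 complex trims the ends, BRCA1, PALB2 and BRCA2 prepare the exposed strand, and the strand then pairs with an intact copy. The Fanconi proteins bring the same machinery to crosslinked DNA at stalled replication forks, and the kinases ATM and ATR signal the damage to the cell cycle. Germ cells that enter meiosis make double-strand breaks on purpose, and female mouse germ cells do so in the fetal ovary, while male germ cells of that age stop dividing and enter meiosis only after birth.

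Messenger RNA was measured in 75 mouse libraries in 37 groups by sequencing of transcript 3' ends after amplification from 1 ng of total RNA. Embryo germ cells came from ICR and C57BL/6 animals crossed 1:1, in 11 groups of 2 libraries: 3 stages from E9.5 to E11.5, daily and without a sex label, and 4 stages from E12.5 to E15.5, each as female and as male cells. Cells up to E13.5 carried a Dppa3-EGFP transgene and were sorted by GFP, and cells at E14.5 and E15.5 carried Ddx4-RFP and were sorted by RFP, so the stage cannot be told apart from the reporter where the 2 sets of stages meet. Primordial germ cell-like cells (PGCLCs), derived from embryonic stem cells, carried the transgenes Prdm1-mVenus and Dppa3-ECFP in all 3 lines, were sorted by reporter colour on the day they entered culture, and grew on mitomycin C-treated m220 feeder cells. The 129S1:C57BL/6 line gave uncultured cells at day 0, CT cells at culture day 3 and RB, RA and CT cells at days 5, 7 and 9, with 2 libraries a group. Per the labels, factors toward a female fate were added at day 3 of culture. RB, RA and CT are not written out there and serve here as names of groups. The DBA/2:C57BL/6 line gave Stra8-/- cells (4 libraries a group: 2 of line SK1 and 1 each of lines SK2 and SK3) and wild-type cells (2 libraries a group), in both cases CT cells of day 3 and RB cells of days 5, 7 and 9. A further 7 groups have 1 library each: a 129S1:C57BL/6 library named 0R3B and 6 of a C57BL/6 line that also carries Gtrosa26tm1Sor.

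Values are RPM, read numbers scaled to the reads of each library that fell on genes. Estimated depth was 1.08 to 15.6 M reads a library (median 3.12 M), so 3 reads, taken as the smallest measurable amount, stood for 0.192 to 2.78 RPM. In 35 of the 36 genes at least 2 libraries of each experiment reached 5 RPM, the level needed for a test. Mlh3, a MutL nuclease subunit for meiotic crossovers, did not: it was between 0 and 5.30 RPM, with 24 of 75 libraries at or under 3 reads, and nothing is read from it. Fold changes are on the scale log2(RPM + 1), which understates changes of low genes, and come from limma; ± after a fold change is its SE. The words called, rose and fell are kept for genes with a Benjamini-Hochberg adjusted p under 0.05 over all genes tested and a log2 fold change of 1 or more in size. Counts of members at an unadjusted p under 0.05 have no fold limit. The share of all genes at that level was not counted, so such counts cannot be set against the shares called. The labels do not say whether libraries of a group came from separate litters or cultures, so the p-values rest on the spread among these libraries alone. A lack of overlap between groups of 2 libraries can arise without a difference, and its share over all genes was not counted. The libraries are bulk samples, in which fewer cells with a transcript and less of it per cell cannot be told apart. The 10 germ cell markers, such as Dazl and Ddx4, summed to at least 1944 RPM in every group. In the group with the lowest sum, C57BL/6 cells of day 0, Dppa3 led at 755 RPM and 2 of the 10 were under 3 RPM.

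Across 20 comparisons between groups, some of which share libraries, 30 of the 36 genes were called at least once. The rest were Rad54b, Fance, Fancf, Rad50 and Trip13, which never passed, and the untested Mlh3. The share of all genes called at least once was not counted. Between the sexes at E15.5 alone 23.7 % of all genes were called higher and 30.0 % lower. Over the 75 libraries Rad50, the hinge protein of the MRE11 complex, ranged over 57.9 to 173 RPM and Trip13, a remodeller of checkpoint and chromosome axis proteins, over 31.7 to 115 RPM. Rad54b, a relative of the DNA motor gene Rad54l, ranged over 20.9 to 79.5 RPM, and the core complex genes Fance and Fancf over 15.45 to 46.4 RPM and 2.24 to 15.46 RPM. Rbbp8 was called higher in 10 comparisons, Atr in 8 and Mdc1 in 7, and Chek2 was called lower in 6. In the heat map of group means the strongest colours fall on a few genes, and many of the 36 stay pale.

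**Figure D1:**
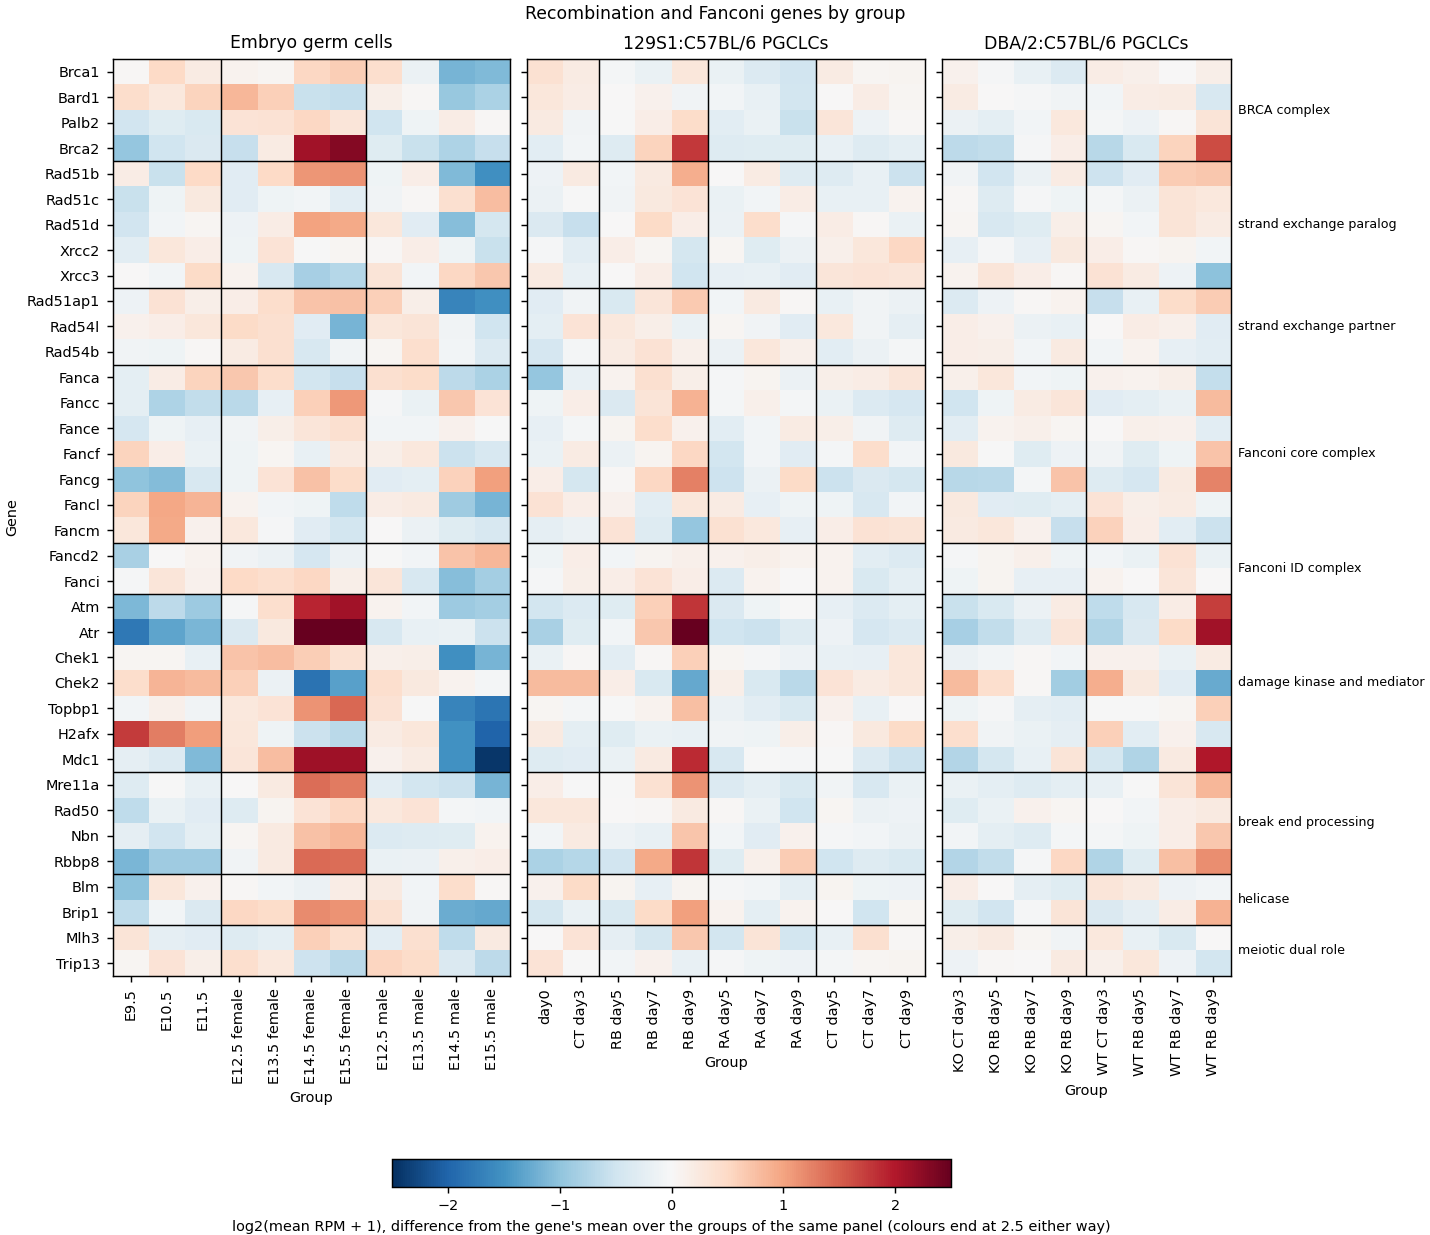
Log2 of the group mean RPM + 1 of each of the 36 genes in each replicated group, as the difference from the gene's mean over the groups of the same panel. Genes run down the page by role and groups run across by experiment; Atr, Atm, Brca2, Mdc1 and Mre11a are above their mean in E14.5 and E15.5 female germ cells and in RB day 9 PGCLCs.

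In fetal germ cells the sexes parted in these genes at E14.5. The damage kinases Atr and Atm, the mediators Topbp1 and Mdc1, and Brca2 rose in female against male cells by log2 fold changes of 2.74 to 3.77, and Chek2, Xrcc3 and Fancd2 fell. Of the 35 genes tested 15 were higher in E14.5 female than male germ cells, where 22.4 % of all 12567 genes tested were higher, and 3 were lower, where 25.9 % of all genes were. The median log2 fold change was 0.41 over the 35 genes and -0.08 over all genes. At E15.5 the counts were again 15 higher (23.7 % of all genes) and 3 lower (30.0 %), with medians of 0.61 and -0.14.

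Among the damage kinases and their mediators 5 of 7 rose (22.4 % of all genes) and 1 fell (25.9 %) in E14.5 female cells. Atr, the kinase that answers single-stranded DNA and stalled forks, stood at 671 and 671 RPM in E14.5 female libraries against 94.9 and 105 RPM in male libraries (log2 fold change 2.74 ± 0.14 (SE), adjusted p = 9.57e-14). Atm, the kinase that answers double-strand breaks, stood at 301 and 273 RPM in female libraries and 37.1 and 42.3 RPM in male libraries (log2 fold change 2.82 ± 0.18 (SE), adjusted p = 2.23e-12). Both kinases were far above the male level in each female library, with no overlap. Topbp1, which switches on ATR, stood at 408 and 383 RPM in female libraries and 51.8 and 61.2 RPM in male libraries (log2 fold change 2.79 ± 0.12 (SE), adjusted p = 4.83e-15). Mdc1, the scaffold that binds phosphorylated H2AX beside a break, stood at 60.4 and 77.8 RPM in female libraries and 6.93 and 2.29 RPM in male libraries (log2 fold change 3.77 ± 0.40 (SE), adjusted p = 1.75e-08). Mdc1 was low in male libraries, and the SE of its fold change is the largest among the 4. Chek1, the kinase that acts below ATR, was at 71.6 and 54.2 RPM in female and 13.3 and 13.4 RPM in male libraries (log2 fold change 2.14 ± 0.26 (SE), adjusted p = 1.88e-07). Chek2, the checkpoint kinase that acts below ATM and culls mouse oocytes with unrepaired breaks, ran the other way, with 3.83 and 7.94 RPM in female and 22.9 and 27.1 RPM in male libraries (log2 fold change -1.98 ± 0.32 (SE), adjusted p = 8.41e-06). H2afx, the histone variant that is phosphorylated around breaks, was at 142 and 108 RPM in female and 73.9 and 53.0 RPM in male libraries at E14.5, under the limit of 1 (log2 fold change 0.98 ± 0.13 (SE), adjusted p = 6.83e-07). At E15.5 it passed, with 111 and 118 RPM in female and 47.0 and 43.2 RPM in male libraries (log2 fold change 1.33 ± 0.13 (SE), adjusted p = 4.14e-09). Histone genes resemble each other, so reads of H2afx are uncertain.

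At E15.5 the same genes stood apart. Atr reached 979 and 973 RPM in E15.5 female libraries, against 74.5 and 78.7 RPM in male libraries (log2 fold change 3.66 ± 0.14 (SE), adjusted p = 2.97e-16). Mdc1 was at 71.5 and 65.7 RPM in female libraries and at 0.741 and 3.18 RPM in male libraries (log2 fold change 4.69 ± 0.40 (SE), adjusted p = 3.23e-10). One of the male Mdc1 values lay at or under 3 reads, the only such value of this gene in the series. Chek2 stayed low in female libraries, at 5.48 and 11.7 RPM against 20.8 and 24.7 RPM in male libraries (log2 fold change -1.38 ± 0.32 (SE), adjusted p = 0.000491); without female replicate 1 the log2 fold change was -0.90 and the call was lost. The other leading log2 fold changes at this stage were 3.26 ± 0.12 for Topbp1, 2.95 ± 0.18 for Atm, 2.86 ± 0.16 for Brca2, 2.67 ± 0.31 for Rad51b, 2.47 ± 0.14 for Mre11a and 2.41 ± 0.25 for Brip1. Mre11a stood at 180.4 and 166 RPM in female and 34.1 and 27.2 RPM in male libraries, Rad51b at 20.1 and 20.0 RPM in female and 2.96 and 1.76 RPM in male libraries, and Brip1 at 42.9 and 40.6 RPM in female and 7.41 and 6.70 RPM in male libraries. In all 3 the female libraries lay above the male ones without overlap.

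**Figure D2:**
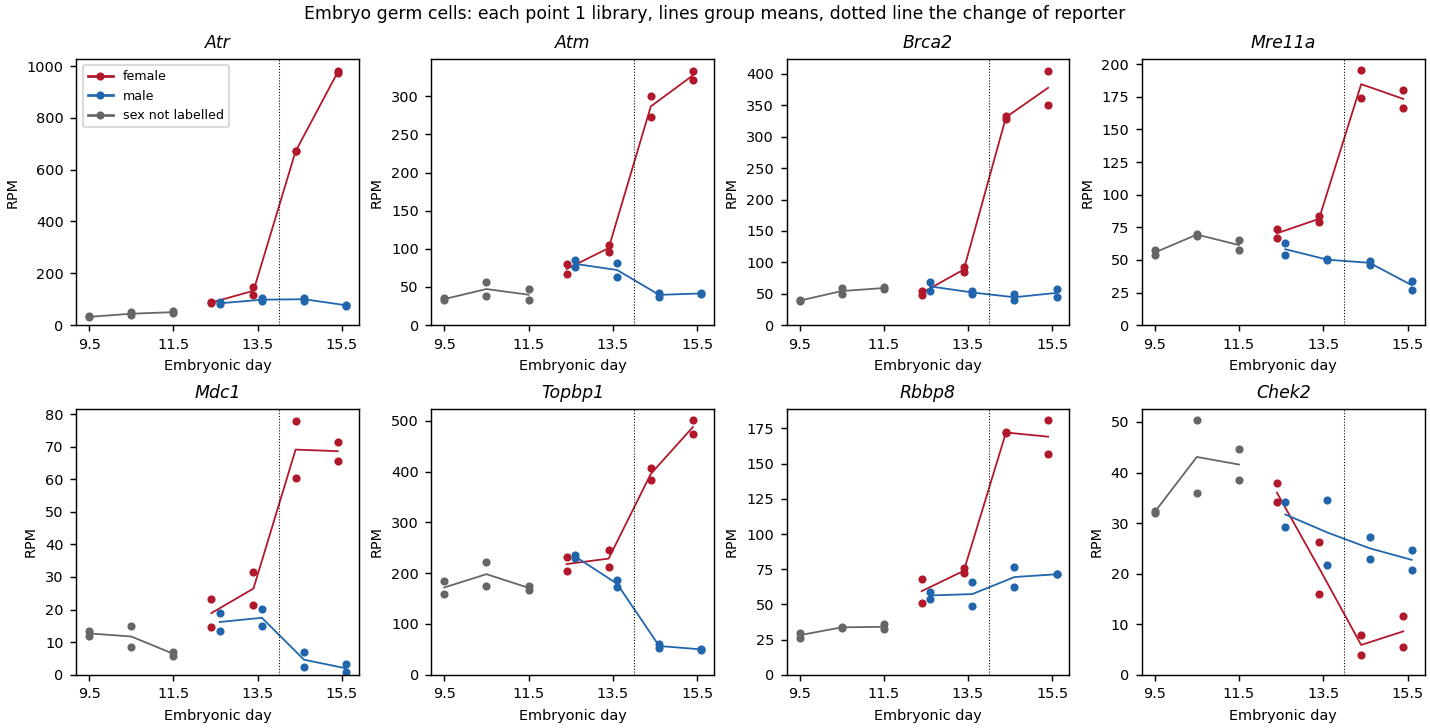
RPM of 8 genes in embryo germ cells by stage, each point 1 library and each line the group means, with female, male and cells without a sex label in separate colours and a dotted line at the change of reporter. Atr, Atm, Brca2, Topbp1, Mdc1, Mre11a and Rbbp8 separate by sex at E14.5 and E15.5 with female libraries above male ones, and Chek2 separates with female libraries below.

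In the BRCA complex 2 of 4 genes rose at E14.5 (22.4 % of all genes). Brca2, which acts with PALB2 on resected DNA ends and loads DMC1 in meiosis, stood at 333 and 329 RPM in E14.5 female libraries and 49.4 and 39.4 RPM in male libraries (log2 fold change 2.88 ± 0.16 (SE), adjusted p = 1.89e-13). Brca1, a ubiquitin ligase that favours recombination over end joining, stood at 100.1 and 109.8 RPM in female libraries and 27.1 and 37.2 RPM in male libraries (log2 fold change 1.69 ± 0.15 (SE), adjusted p = 4.9e-10). The partners of these proteins did not pass: Bard1, which forms the ligase with BRCA1, was at 21.2 and 18.1 RPM in female and 16.6 and 12.9 RPM in male libraries (log2 fold change 0.40 ± 0.22), and Palb2, which joins BRCA1 to BRCA2, at 30.3 and 31.2 RPM in female and 22.6 and 26.6 RPM in male libraries (log2 fold change 0.32 ± 0.24). The female libraries of Bard1 and Palb2 lay just above the male ones, an order that groups of 2 libraries can show without a difference.

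The paralogs that assist strand exchange split. Rad51b, a subunit of a complex that assists strand exchange, was at 21.5 and 18.4 RPM in E14.5 female and 3.01 and 4.0 RPM in male libraries (log2 fold change 2.22 ± 0.31 (SE), adjusted p = 1.14e-06), and Rad51d of the same complex at 23.0 and 31.6 RPM in female and 4.82 and 6.57 RPM in male libraries (log2 fold change 2.07 ± 0.34 (SE), adjusted p = 1.11e-05). Xrcc3, which pairs with RAD51C, was lower, at 7.66 and 4.66 RPM in female and 16.9 and 17.4 RPM in male libraries (log2 fold change -1.37 ± 0.38 (SE), adjusted p = 0.00287). At E15.5 its log2 fold change was -1.46 ± 0.38, and without female replicate 2 it was -0.89 and not called. Rad51c, the paralog present in both complexes, fell at E15.5, at 59.3 and 39.0 RPM in female and 121 and 81.9 RPM in male libraries (log2 fold change -1.03 ± 0.19 (SE), adjusted p = 4e-05). The log2 fold change was -0.96 with median centring, -0.74 without female replicate 2 and -0.76 without male replicate 1, and none of these passed. Xrcc2, at 5.01 and 7.67 RPM in female and 3.31 and 8.29 RPM in male libraries at E14.5, overlapped between the sexes. Among the strand exchange partners Rad51ap1, which stimulates the pairing of DNA strands, was at 57.7 and 78.3 RPM in female and 11.1 and 13.4 RPM in male libraries (log2 fold change 2.37 ± 0.21 (SE), adjusted p = 1.22e-09). The DNA motor proteins Rad54l and Rad54b did not pass at either stage.

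Enzymes of break ends rose in 3 of 4 genes at E14.5 (22.4 % of all genes). Mre11a, the nuclease of the complex, stood at 196 and 174 RPM in female libraries and 46.1 and 49.4 RPM in male libraries (log2 fold change 1.93 ± 0.14 (SE), adjusted p = 3.34e-11). Rbbp8 (CtIP), the cofactor that starts resection, was at 172 and 173 RPM in female and 76.2 and 62.6 RPM in male libraries (log2 fold change 1.30 ± 0.16 (SE), adjusted p = 2.32e-07). Nbn, the signalling subunit, was at 57.7 and 77.8 RPM in female and 34.6 and 30.9 RPM in male libraries (log2 fold change 1.01 ± 0.17 (SE), adjusted p = 1.16e-05), a call that was lost with quantile normalization (0.91) and without female replicate 2 or male replicate 2. Rad50, the third subunit of the MRE11 complex, was at 123 and 121 RPM in female and 88.6 and 94.0 RPM in male libraries, with a log2 fold change of 0.41 ± 0.16 that stayed under the limit. The helicase Brip1 (FANCJ), a partner of BRCA1, was at 43.9 and 42.7 RPM in female and 6.63 and 8.0 RPM in male libraries (log2 fold change 2.42 ± 0.25 (SE), adjusted p = 1.28e-08). Blm, the helicase that dissolves joint molecules, was at 72.2 and 65.5 RPM in female and 90.1 and 116 RPM in male libraries and not called (log2 fold change -0.57 ± 0.17).

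No gene of the Fanconi core complex passed between the sexes at E14.5 or at E15.5. Of its 7 genes none was called by limma at E14.5 (22.4 % of all genes higher and 25.9 % lower) or at E15.5 (23.7 % and 30.0 %). At an unadjusted p under 0.05 1 gene was higher and none lower at each stage. Fancc was called only for the change of the sex difference from E12.5 to E15.5 (1.41 on the log2 scale). Fancl, the ubiquitin ligase subunit, was at 14.1 and 19.2 RPM in E14.5 female and 10.54 and 8.0 RPM in male libraries (log2 fold change 0.78 ± 0.25), and the DNA-anchoring subunit Fancm at 12.4 and 12.3 RPM in female and 10.8 and 13.7 RPM in male libraries (log2 fold change 0.02 ± 0.27). The 2 genes of the clamp that the core complex modifies moved apart at E14.5. Fanci was at 58.9 and 53.1 RPM in female and 21.7 and 14.6 RPM in male libraries (log2 fold change 1.60 ± 0.20 (SE), adjusted p = 2.83e-07). Fancd2 was at 10.6 and 25.2 RPM in female and 51.2 and 29.4 RPM in male libraries (log2 fold change -1.19 ± 0.29 (SE), adjusted p = 0.00104). The call of Fancd2 was lost without female replicate 1 (log2 fold change -0.61) or male replicate 1 (-0.80). Within 1000 bases of their 3' ends 6 of the 36 genes, Fanci, Fancd2, Fanca, Fancl, Rad54l and Rad54b, overlap a gene on the other strand, and the sources used here do not state whether counting used strand, so their values are uncertain.

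Promoter stretches of 4 genes that rose in female cells are given here to show what their starts hold, from RefSeq windows of GRCm38.p6, cut to bases that lie in no annotated exon. Matches to a motif are in capitals. The letters searched on both strands in 250 bases before the start were TTTNNCGC, a loose form of the site bound by E2F factors, which drive genes of DNA replication and repair, CNCCTCAG, a form of the motif reported for STRA8, and the E-box CACGTG. These forms were chosen after values of these genes had been seen.
Mdc1, plus strand, chr17:35841248-35841494: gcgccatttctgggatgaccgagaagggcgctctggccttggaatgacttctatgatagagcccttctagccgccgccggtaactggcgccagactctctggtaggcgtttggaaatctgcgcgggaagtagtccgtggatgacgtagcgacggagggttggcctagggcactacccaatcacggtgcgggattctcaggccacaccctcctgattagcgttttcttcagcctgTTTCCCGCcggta
Rad51ap1, minus strand, chr6:126939622-126939837: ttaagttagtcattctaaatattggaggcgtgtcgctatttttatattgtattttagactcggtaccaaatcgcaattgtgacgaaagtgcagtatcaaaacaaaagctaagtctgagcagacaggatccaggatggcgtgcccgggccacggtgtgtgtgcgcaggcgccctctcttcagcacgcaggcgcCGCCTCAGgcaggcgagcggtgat
Rad51b, plus strand, chr12:79297032-79297281: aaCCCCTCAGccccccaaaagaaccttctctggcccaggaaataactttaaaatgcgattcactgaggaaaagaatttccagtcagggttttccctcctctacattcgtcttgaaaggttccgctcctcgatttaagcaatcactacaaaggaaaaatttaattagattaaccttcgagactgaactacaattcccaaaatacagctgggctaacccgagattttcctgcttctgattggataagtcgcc
Atm, minus strand, chr9:53536829-53536921: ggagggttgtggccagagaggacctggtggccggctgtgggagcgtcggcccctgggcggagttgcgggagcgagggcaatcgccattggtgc
The capitals mark an E2F match whose first base lies 16 bases before a start of Mdc1. They also mark STRA8-type matches that begin 58 bases before a start of Rad51ap1 and 248 bases before a start of Rad51b. Distances run from the start used for the RefSeq window, which for Mdc1 and Rad51ap1 lies past the end of the stretch shown. The stretch shown for Atm holds none of the 3 motifs. Neither does the stretch of Mre11a or that of another start of Rad51b, both not printed here. Promoters were found for 28 of the 36 genes. The E2F letters occurred in 7 of these (25 %: Bard1, Brca2, Brip1, Chek2, Fancg, Mdc1 and Topbp1) and in 4.94 % of 27025 genes with a promoter, the narrower TTTNGCGC in 1 (3.57 %, Topbp1) and in 1.31 % of genes. The STRA8-type letters occurred in 3 (10.7 %: Fancf, Rad51ap1 and Rad51b) and in 7.39 % of genes, and CACGTG in none of the 28 and in 6.86 % of genes. Chek2, which fell, is among the genes with the E2F letters, and a match is a description of these letters only.

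Before E14.5 no gene of the set was called between the sexes by limma. At E12.5, where 3.77 % of all genes were called higher and 2.75 % lower, 4 of the 35 were higher and 4 lower at an unadjusted p under 0.05. That level has no fold limit, so counts at it cannot be set against the shares called. At E13.5, where 10.4 % were called higher and 6.31 % lower, 11 were higher and 1 lower at that level. Atr was then at 117 and 148 RPM in female and 104 and 92.6 RPM in male libraries (log2 fold change 0.42 ± 0.14), and Brca2 at 92.3 and 85.0 RPM in female and 50.1 and 53.8 RPM in male libraries (log2 fold change 0.76 ± 0.16 (SE), adjusted p = 0.000705), still under the limit of 1. Between E12.5 and E15.5 the gap of the sexes itself changed in 16 of the 35 genes, 15 toward female cells (22.2 % of all genes) and 1, Chek2, toward male cells (27.7 % of all genes). Across those stages the sorting reporter changed as well.

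The E15.5 cells were also set against E11.5 cells, before sex shows, and both comparisons share the 2 E11.5 libraries. E11.5 cells were sorted by Dppa3-EGFP and E15.5 cells by Ddx4-RFP. In every comparison of E15.5 with E11.5 the stage therefore cannot be told apart from the reporter. In E15.5 female cells 10 of 35 genes were higher (28.1 % of all genes) and 7 lower (24.5 %), with a median log2 fold change of 0.59 against 0.10 over all genes. In E15.5 male cells 2 were higher (28.6 %) and 9 lower (18.5 %), with a median of -0.51 against 0.21, and 24 of the 35 genes did not pass. The female counts lie near the shares of all genes. With median centring the male counts were 1 higher and 14 lower, and with quantile normalization 2 and 14.

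Topbp1 and Mdc1 moved one way in female cells and the other way in male cells. Topbp1 was at 474 and 501 RPM in E15.5 female libraries, 51.1 and 48.7 RPM in E15.5 male libraries and 175 and 167 RPM in E11.5 libraries, so female libraries were above and male libraries below the earlier stage (log2 fold change 1.51 ± 0.12 (SE), adjusted p = 1.29e-10 in female cells; log2 fold change -1.76 ± 0.12 (SE), adjusted p = 1.67e-11 in male cells). Mdc1 was at 5.77 and 7.06 RPM at E11.5, under the E15.5 female values and above the male values given above (log2 fold change 3.23 ± 0.40 (SE), adjusted p = 1.45e-07 in female cells, log2 fold change -1.45 ± 0.40 (SE), adjusted p = 0.00281 in male cells). The male call of Mdc1 was lost without male replicate 1, at a log2 fold change of -0.82. Atr was at 54.9 and 45.6 RPM at E11.5 (log2 fold change 4.26 ± 0.14 (SE), adjusted p = 1.17e-17 in female cells), and in male cells its log2 fold change was 0.60 ± 0.14, under the limit. Atm was at 334 and 321 RPM in E15.5 female, 42.2 and 40.9 RPM in E15.5 male and 46.7 and 33.0 RPM in E11.5 libraries (log2 fold change 3.03 ± 0.18 (SE), adjusted p = 3.2e-13 in female cells; 0.08 ± 0.18 in male cells). Brca2 was at 405 and 350.5 RPM in E15.5 female, 44.5 and 58.2 RPM in E15.5 male and 60.1 and 58.1 RPM in E11.5 libraries (log2 fold change 2.65 ± 0.16 (SE), adjusted p = 3.6e-13 in female cells). Male libraries of Atm and Brca2 lay near or across the E11.5 range. Fancc, a core complex subunit, rose to 52.3 and 57.6 RPM in E15.5 female libraries, against 18.4 and 14.4 RPM at E11.5 (log2 fold change 1.69 ± 0.24 (SE), adjusted p = 1.3e-06). Rbbp8 rose in both sexes, to 181 and 157 RPM in female and 71.5 and 71.3 RPM in male libraries, against 35.7 and 32.4 RPM at E11.5 (log2 fold change 2.28 ± 0.16 in female and 1.05 ± 0.16 in male cells). The male call of Rbbp8 was lost with median centring (0.88) and without E11.5 replicate 2 (0.98).

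Other genes were lower in both sexes. H2afx, given above for E15.5, was at 388 and 369 RPM at E11.5, above every E15.5 library of either sex (log2 fold change -1.72 ± 0.13 (SE), adjusted p = 4.04e-11 in female cells, log2 fold change -3.04 ± 0.13 (SE), adjusted p = 4.21e-15 in male cells). Fancl was at 13.1 and 9.46 RPM in E15.5 female, 8.15 and 7.06 RPM in E15.5 male and 29.4 and 37.9 RPM in E11.5 libraries (log2 fold change -1.50 ± 0.25 in female and -2.00 ± 0.25 in male cells). Fanca, another core subunit, was at 12.8 and 12.8 RPM in female, 13.3 and 8.47 RPM in male and 32.5 and 26.3 RPM in E11.5 libraries (log2 fold change -1.13 ± 0.25 in female and -1.38 ± 0.25 in male cells). Bard1 was at 20.7 and 17.5 RPM in female, 13.3 and 19.8 RPM in male and 43.0 and 43.6 RPM in E11.5 libraries (log2 fold change -1.14 ± 0.22 in female and -1.36 ± 0.22 in male cells). In these 4 genes every E15.5 library lay below both E11.5 libraries. In female cells Chek2 (log2 fold change -2.23 ± 0.32; 38.6 and 44.6 RPM at E11.5), Rad54l (-1.43 ± 0.23; 13.4 and 12.8 RPM in E15.5 female and 43.8 and 31.1 RPM in E11.5 libraries) and Xrcc3 (-1.23 ± 0.38) also fell. The call of Xrcc3 was lost without E11.5 replicate 2 or female replicate 2, and that of Fanca in female cells without E11.5 replicate 1. In male cells Rad51b (log2 fold change -2.04 ± 0.31), Rad51ap1 (-1.68 ± 0.21) and Brca1 (-1.29 ± 0.15) fell, and Fancg, a core subunit, rose to 47.8 and 41.3 RPM in E15.5 male libraries, against 18.6 and 13.2 RPM at E11.5 (log2 fold change 1.45 ± 0.31 (SE), adjusted p = 0.000241). Of 19 proliferation genes 1 rose and 13 fell in E15.5 female cells, and none rose and 16 fell in E15.5 male cells. Beside them 10 genes of the set were higher and 7 lower in female cells, and 2 higher and 9 lower in male cells. The part of replication and mitosis in these results was not tested. Gonadal somatic markers summed to 16.8 to 25.1 RPM in E15.5 female, 46.7 to 52.6 RPM in E15.5 male and 8.53 to 10.9 RPM in E11.5 libraries. Fibroblast markers summed to 187 to 210 RPM in female, 313 to 317 RPM in male and 489 to 512 RPM in E11.5 libraries, and blood and endothelium markers to 63.3 to 213 RPM in female, 122 to 197 RPM in male and 114 to 128 RPM in E11.5 libraries. The part of these transcripts was not tested. At E11.5 against E9.5, where 5.01 % of all genes were called higher and 6.37 % lower, Blm alone was called, with 90.3 and 73.8 RPM at E11.5 and 36.1 and 37.7 RPM at E9.5 (log2 fold change 1.13 ± 0.17 (SE), adjusted p = 3.24e-05). Without E11.5 replicate 1 its log2 fold change was 0.98 and the call was lost. Beside it the blood and endothelium markers summed to 114 to 128 RPM at E11.5 and 3569 to 3703 RPM at E9.5, and their part was not tested. Spike-in transcripts summed to 19531 and 18057 RPM at E11.5 and 1114 and 475 RPM at E9.5. The part of this difference was not tested either.

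Other genes of the same pathways, from lists written with earlier results known, moved in the same samples. Of 47 tested genes of recombination and the Fanconi pathway outside the 36, 15 were higher and 3 lower in E14.5 female than male cells (median 0.45). Higher were Apitd1, a FANCM cofactor (2.37), Usp1, which removes ubiquitin from the FANCD2 clamp (2.11), Stra13, the partner of Apitd1 (2.06), and Uimc1 of the BRCA1-A complex (2.00). Lower were Rpa1, the single-strand DNA binder (-2.22), the nuclease scaffold Slx4 (-1.67) and the nuclease partner Ercc1 (-1.21), all as log2 fold changes. Of 12 end joining genes 1 was higher, Xrcc4 (2.03), and 2 were lower, Parp1 (-1.27) and the polymerase gene Poll (-1.12). Of 25 genes of meiotic recombination 23 were higher and 1, Mnd1, lower, with a median log2 fold change of 3.25. Of 19 proliferation genes 6 were higher and 4 lower; Mki67, an antigen of dividing cells, was at 181 and 202 RPM in E14.5 female and 15.4 and 10.3 RPM in male libraries.

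Sums of fibroblast and gonadal somatic markers also differed between the sexes at E14.5, and sums of blood and endothelium markers overlapped. The 12 fibroblast markers summed to 199 to 225 RPM in female and 359 to 461 RPM in male libraries, mostly as Fn1, with 6 of 12 in female and 1 of 12 in male cells under 3 RPM in every library. The 14 gonadal somatic markers summed to 24.4 to 24.9 RPM in female and 55.2 to 98.2 RPM in male libraries, with Amh at 0 in both sexes and Sox9, Cyp17a1, Cyp11a1 and Hsd3b1 at 0 in female libraries; 10 of 14 in female and 4 of 14 in male cells were under 3 RPM. The 10 blood and endothelium markers summed to 40.3 to 58.3 RPM in female and 38.2 to 119 RPM in male libraries, with Ptprc and Hbb-bh1 at 0 in both; 7 of 10 in female and 6 of 10 in male cells were under 3 RPM. Which cells these transcripts came from, and their part in the sex differences, was not tested.

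In PGCLCs of the 129S1:C57BL/6 line several of the same genes rose late under RB, and under RA only Rbbp8 passed. At culture day 9 RB cells had more Atr, Mdc1, Rbbp8, Brca2, Atm, Fancg, Rad51b, Mre11a, Fancc and Brip1 than CT cells, and less Chek2, Fancm and Xrcc2. That is 10 of 35 genes higher, where 24.6 % of all 11873 genes tested were, and 3 lower, where 12.1 % were; the medians were 0.43 over the 35 genes and 0.19 over all genes. Both counts lie near the shares of all genes. With median centring they were 7 higher and 4 lower, and with quantile normalization 8 and 4.

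Atr stood at 419.8 and 506 RPM in RB day 9 libraries, 52.3 and 56.6 RPM in RA and 63.0 and 45.0 RPM in CT libraries (RB against CT, log2 fold change 3.09 ± 0.25 (SE), adjusted p = 5.07e-10). Atm stood at 186 and 254 RPM in RB, 53.6 and 72.2 RPM in RA and 49.8 and 56.6 RPM in CT libraries (log2 fold change 2.01 ± 0.19 (SE), adjusted p = 6e-09). In both kinases every RB library was above every RA and CT library, and RA and CT libraries overlapped. Mdc1 stood at 56.4 and 59.0 RPM in RB, 12.9 and 16.7 RPM in RA and 9.71 and 10.3 RPM in CT libraries (log2 fold change 2.41 ± 0.36 (SE), adjusted p = 4.94e-06). Brca2 stood at 202 and 223 RPM in RB, 46.0 and 52.2 RPM in RA and 52.7 and 50.4 RPM in CT libraries (log2 fold change 2.02 ± 0.19 (SE), adjusted p = 6.06e-09). Rbbp8 was graded, with 139 and 156 RPM in RB, 61.8 and 69.7 RPM in RA and 29.9 and 34.0 RPM in CT libraries (log2 fold change 2.17 ± 0.22 (SE), adjusted p = 1.4e-08). Here the RA libraries lay between the others without overlap. Mre11a stood at 157 and 161 RPM in RB, 56.4 and 54.4 RPM in RA and 68.5 and 60.8 RPM in CT libraries (log2 fold change 1.29 ± 0.17 (SE), adjusted p = 1.14e-06), and Rad51b at 17.9 and 22.5 RPM in RB, 7.88 and 8.20 RPM in RA and 7.71 and 5.82 RPM in CT libraries (log2 fold change 1.45 ± 0.29 (SE), adjusted p = 0.000177). Neither had an RB library within the range of the RA or CT libraries. Fancg stood at 31.8 and 34.6 RPM in RB, 14.2 and 23.2 RPM in RA and 11.2 and 7.76 RPM in CT libraries (log2 fold change 1.72 ± 0.36 (SE), adjusted p = 0.000271). Fancc (log2 fold change 1.28 ± 0.30) and Brip1 (1.01 ± 0.31) passed on the deposited scale, and with median centring they were at 0.96 and 0.69, and Mre11a at 0.97, all under the limit. With quantile normalization Fancc was at 0.94.

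Fewer genes fell. Chek2 stood at 19.9 and 7.51 RPM in RB, 23.3 and 18.9 RPM in RA and 36.3 and 47.9 RPM in CT libraries (log2 fold change -1.68 ± 0.31 (SE), adjusted p = 6.32e-05), so that every RB and RA library lay below both CT libraries. Fancm stood at 17.5 and 17.7 RPM in RB, 30.9 and 29.8 RPM in RA and 45.3 and 43.3 RPM in CT libraries (log2 fold change -1.29 ± 0.20 (SE), adjusted p = 6.76e-06). Xrcc2, at 1.99 and 8.59 RPM in RB and 10.9 and 11.6 RPM in CT libraries (log2 fold change -1.20 ± 0.43), rests on 1 low library: without RB replicate 1 its log2 fold change was -0.36. The 22 genes that did not pass were Brca1, Bard1, Palb2, Rad51c, Rad51d, Xrcc3, Rad51ap1, Rad54l, Rad54b, Fanca, Fance, Fancf, Fancl, Fancd2, Fanci, Chek1, Topbp1, H2afx, Rad50, Nbn, Blm and Trip13.

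The rise came between days 5 and 9. At day 5 no member was called by limma and none had an unadjusted p under 0.05, where 0.556 % of all genes were called higher and 0.118 % lower. At day 7 Rbbp8 and Atr were called higher (15.7 % of all genes were) and none lower (3.62 %). Rbbp8 was then at 74.1 and 90.6 RPM in RB and 39.9 and 26.9 RPM in CT libraries (log2 fold change 1.30 ± 0.22 (SE), adjusted p = 8.38e-05), and Atr at 106 and 113 RPM in RB and 42.6 and 59.1 RPM in CT libraries (log2 fold change 1.107 ± 0.25 (SE), adjusted p = 0.00162). The call of Atr was lost with median centring (0.82) and without CT replicate 1 (0.88). The RB against CT difference itself changed between days 5 and 9 in 12 genes, 10 upward (20.2 % of all genes) and 2 downward (9.54 %): Brca2, Rad51b, Rad51ap1, Fancc, Atm, Atr, Mdc1, Mre11a, Rbbp8 and Brip1 upward, and Fancm and Chek2 downward. Over CT culture alone no member was called, at day 9 against day 3 (1.66 % of all genes higher and 0.590 % lower; 2 members higher and 4 lower at an unadjusted p under 0.05) or at day 3 against day 0 (3.03 % and 2.43 %; 3 higher and none lower at that level).

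**Figure D3:**
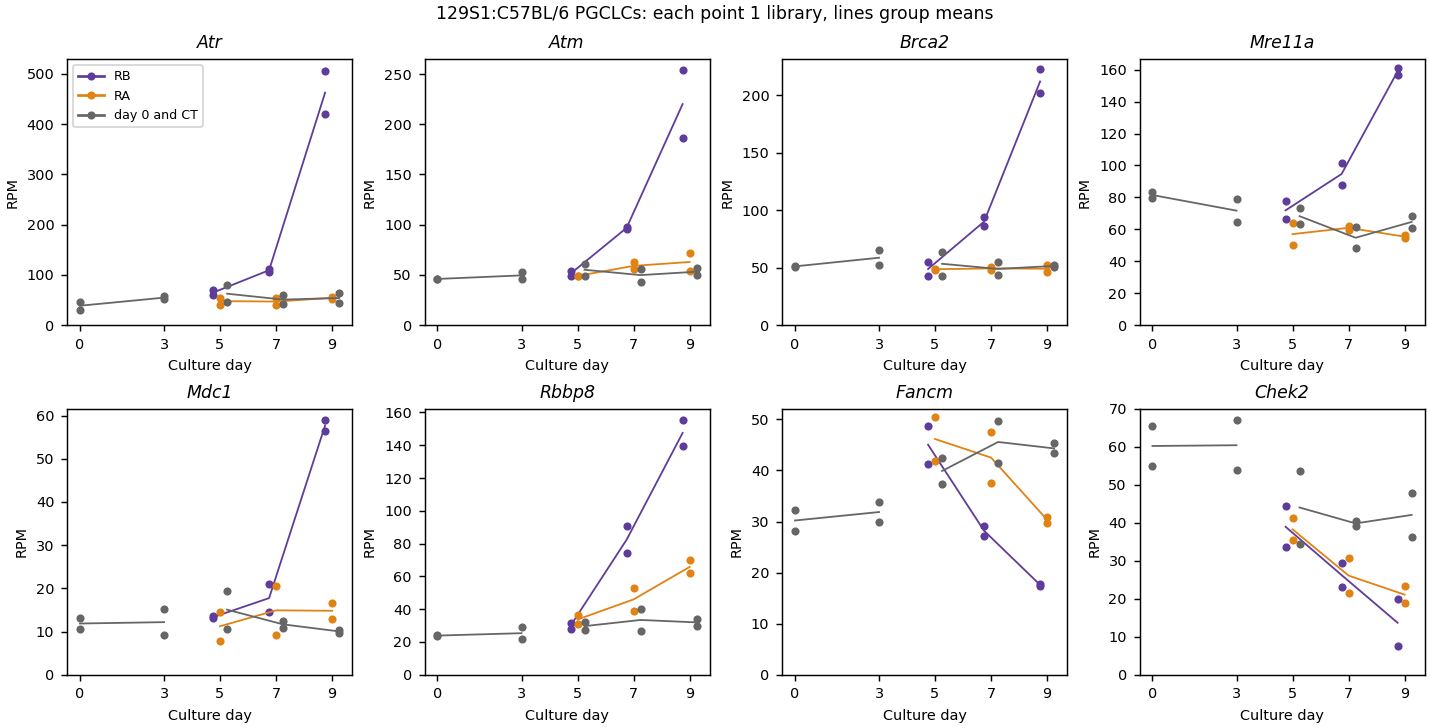
RPM of 8 genes in 129S1:C57BL/6 PGCLCs by culture day, each point 1 library and each line the group means, with RB, RA, and day 0 and CT in separate colours. Atr, Atm, Brca2, Mre11a, Mdc1 and Rbbp8 are higher in RB libraries at day 9 than at day 7, and Fancm and Chek2 are lower.

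RA alone gave 1 call at day 9 against CT: Rbbp8, higher (13.3 % of all genes were higher), and none lower (3.0 %). At an unadjusted p under 0.05, where the share of all genes was not counted, 3 members were higher and 7 lower. The log2 fold change of Rbbp8 was 1.02 ± 0.22, adjusted p = 0.00116, and the call was lost with median centring (0.75), with quantile normalization (0.89), without CT replicate 1 and without RA replicate 2. With median centring the counts for RA were none higher and 1 lower, and with quantile normalization none and 3. RB against RA at day 9, which shares the RB libraries with the comparison against CT, had 9 genes higher (13.1 % of all genes) and none lower (11.7 %; 2 at an unadjusted p under 0.05). Atr led (log2 fold change 3.06 ± 0.25 (SE), adjusted p = 3e-09), with Brca2 (2.09 ± 0.19), Mdc1 (1.90 ± 0.36), Atm (1.79 ± 0.19), Mre11a (1.50 ± 0.17), Rad51b (1.22 ± 0.29), Rbbp8 (1.15 ± 0.22) and Topbp1 (1.14 ± 0.15) after it and Palb2 last (1.01 ± 0.28). The call of Palb2 was lost with median centring (0.96), without RA replicate 1 (0.93) and without RB replicate 2 (0.99), and that of Topbp1 without RA replicate 1 (0.97). Topbp1 stood at 346 and 357 RPM in RB, 141 and 178 RPM in RA and 193 and 227 RPM in CT libraries, and against CT its log2 fold change of 0.75 ± 0.15 stayed under the limit.

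The genes called in culture and in the embryo, from libraries that the comparisons do not share, were partly the same. Of the 10 genes higher in RB than CT at day 9, 8 (80 %) were higher in E14.5 female than male cells, which is 53.3 % of the 15 higher there: Atm, Atr, Brca2, Brip1, Mdc1, Mre11a, Rad51b and Rbbp8. Over all genes tested in both experiments 1428 were higher in both, which is 51.9 % of the 2750 higher in RB cells and 54.5 % of the 2622 higher in E14.5 female cells. The other 2, Fancg and Fancc, were not called there, with Fancg at 35.3 and 37.0 RPM in E14.5 female and 35.6 and 29.1 RPM in male libraries. Chek1, at 58.8 and 73.0 RPM in RB and 55.3 and 50.4 RPM in CT libraries, and Brca1, at 102 and 121 RPM in RB and 95.4 and 96.0 RPM in CT libraries, did not pass in culture (log2 fold change 0.31 ± 0.20 for Chek1 and 0.21 ± 0.17 for Brca1). Whether the effects differ between culture and embryo was not tested. Of the genes lower, Chek2 was shared, 1 of 3 (33.3 %) on each side, where over all genes the shared part was 55.5 % of those lower in RB cells and 29.2 % of those lower in E14.5 female cells.

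**Figure D4:**
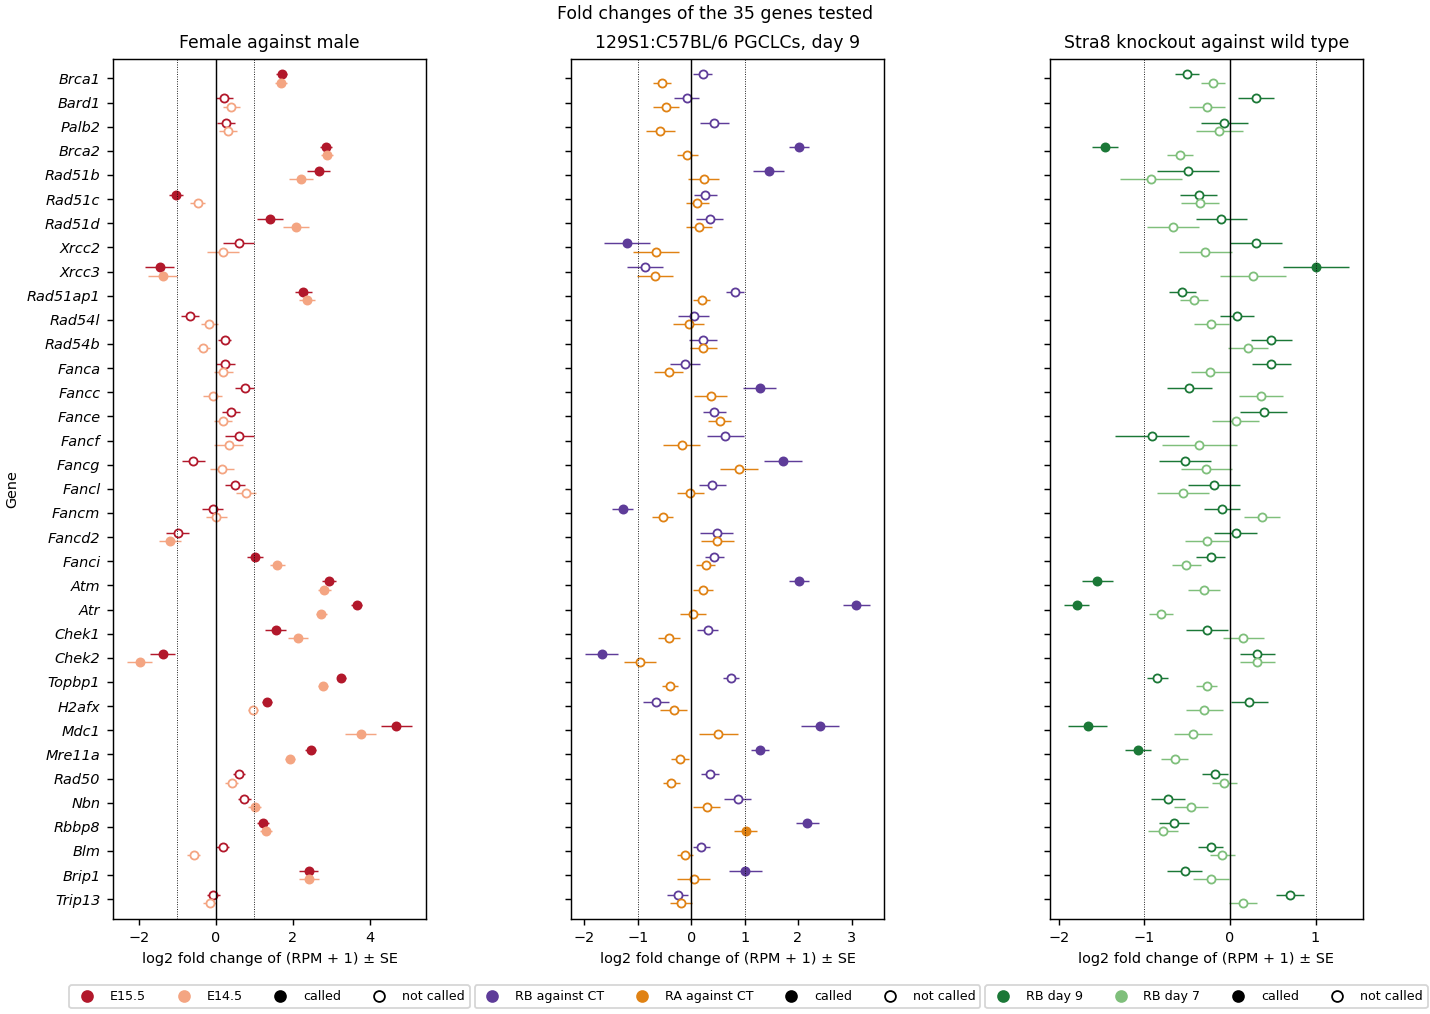
Log2 fold change of (RPM + 1) with its SE for the 35 genes tested: female against male at E15.5 and E14.5, RB and RA against CT at day 9, and Stra8 knockout against wild type at RB days 9 and 7. Filled points are called; in the RA comparison only Rbbp8 is filled, and the knockout points of Atr, Mdc1, Atm, Brca2 and Mre11a lie below -1 at day 9.

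Among the listed genes outside the 36, 9 of 46 recombination and Fanconi genes were higher and 1 lower in RB than CT cells at day 9 (median 0.29), with Uimc1 (log2 fold change 2.90) and the FANCD2-modifying enzyme gene Ube2t (1.81) among the higher. End joining genes gave 3 higher and 2 lower of 12, proliferation genes 1 higher and 6 lower of 19, and meiotic recombination genes 22 higher and none lower of 24 (median 4.64). Under RA 11 of the 24 meiotic genes were higher and none lower. The fibroblast and feeder markers summed to 225 to 255 RPM in RB and 549 to 649 RPM in CT libraries at day 9, mostly as Fn1, with 4 of 12 in RB and 5 of 12 in CT cells under 3 RPM in every library. The gonadal somatic markers summed to 35.2 to 71.9 RPM in RB and 8.52 to 15.4 RPM in CT libraries, with Amh, Cyp11a1, Hsd3b1 and Nr5a1 at 0 in both. The blood and endothelium markers summed to 19.7 to 34.1 RPM in RB and 73.6 to 98.5 RPM in CT libraries, and 9 of 10 were under 3 RPM in both, all but Pecam1. The part of these transcripts in the differences was not tested.

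Stra8, the factor that starts the meiotic programme under retinoic acid, was measured first in the knockout experiment. At RB day 9 it stood at 105, 77.9, 122 and 483 RPM in Stra8-/- libraries, in the order SK1, SK2, SK1 and SK3, and at 1813 and 1717 RPM in wild-type libraries. At RB day 7 it stood at 33.3, 29.3, 30.0 and 204 RPM in Stra8-/- and 1415 and 1439 RPM in wild-type libraries. Every knockout library was below every wild-type library, and SK3 was the highest of the knockout libraries on both days. Which piece of the gene was removed is not in the labels, and 3' reads from a piece that remained are still read here, so these values check nothing about the deletion.

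Without Stra8, 5 leading repair genes were lower at RB day 9: Atr, Mdc1, Atm, Brca2 and Mre11a. That is 5 of 35, where 8.35 % of all 12206 genes tested were lower, and Xrcc3 was the single gene higher, where 10.8 % were. The median log2 fold change was -0.23 over the 35 genes and 0.09 over all genes. At an unadjusted p under 0.05, where the share of all genes was not counted, 4 genes were higher and 12 lower. With median centring the counts were none higher and 5 lower, and with quantile normalization none and 6.

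Atr stood at 147, 136, 149.8 and 119.8 RPM in knockout libraries and 454 and 507 RPM in wild-type libraries (log2 fold change -1.79 ± 0.14 (SE), adjusted p = 2.59e-11). Atm stood at 79.2, 120.4, 98.6 and 117 RPM in knockout libraries and 299 and 304 RPM in wild-type libraries (log2 fold change -1.55 ± 0.18 (SE), adjusted p = 5.21e-08). In both kinases all 4 knockout libraries, from 3 lines, lay below both wild-type libraries; the 2 libraries of SK1 share a line. Mdc1 stood at 44.8, 37.9, 36.4 and 31.3 RPM in knockout and 140.2 and 103 RPM in wild-type libraries (log2 fold change -1.67 ± 0.22 (SE), adjusted p = 4.4e-07). Brca2 stood at 100.3, 125, 121 and 101 RPM in knockout and 284 and 335 RPM in wild-type libraries (log2 fold change -1.46 ± 0.15 (SE), adjusted p = 3.36e-09). Mre11a stood at 79.8, 81.8, 84.2 and 75.7 RPM in knockout and 157 and 185 RPM in wild-type libraries (log2 fold change -1.08 ± 0.16 (SE), adjusted p = 1.8e-06). None of these groups overlapped; the call of Mre11a was lost without wild-type replicate 2, at a log2 fold change of -0.96. Xrcc3 stood at 12.0, 5.23, 12.0 and 15.45 RPM in knockout and 5.88 and 3.75 RPM in wild-type libraries (log2 fold change 1.01 ± 0.38 (SE), adjusted p = 0.0367), with 1 knockout library inside the wild-type range. Its call was lost with median centring, with quantile normalization, without the filter on low values, with the 3 lines as replicates, and without knockout replicate 1, 3 or 4 or wild-type replicate 2 (0.74 without the last).

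Rbbp8, Topbp1, Fancg and Chek2 did not pass against the wild type. Rbbp8 stood at 113, 91.6, 127 and 142 RPM in knockout and 175 and 193 RPM in wild-type libraries (log2 fold change -0.65 ± 0.17, adjusted p = 0.00365). Topbp1 stood at 221, 230.3, 239 and 206 RPM in knockout and 429.8 and 378 RPM in wild-type libraries (log2 fold change -0.85 ± 0.12, adjusted p = 1.21e-06). Both differed without overlap and by less than the limit of 1. Fancg stood at 30.5, 32.1, 27.3 and 26.3 RPM in knockout and 48.7 and 36.5 RPM in wild-type libraries (log2 fold change -0.53 ± 0.30). Chek2, which fell with RB culture in both genotypes, stood at 20.1, 34.0, 22.5 and 14.7 RPM in knockout and 16.8 and 17.8 RPM in wild-type libraries (log2 fold change 0.32 ± 0.20), with overlap.

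**Figure D5:**
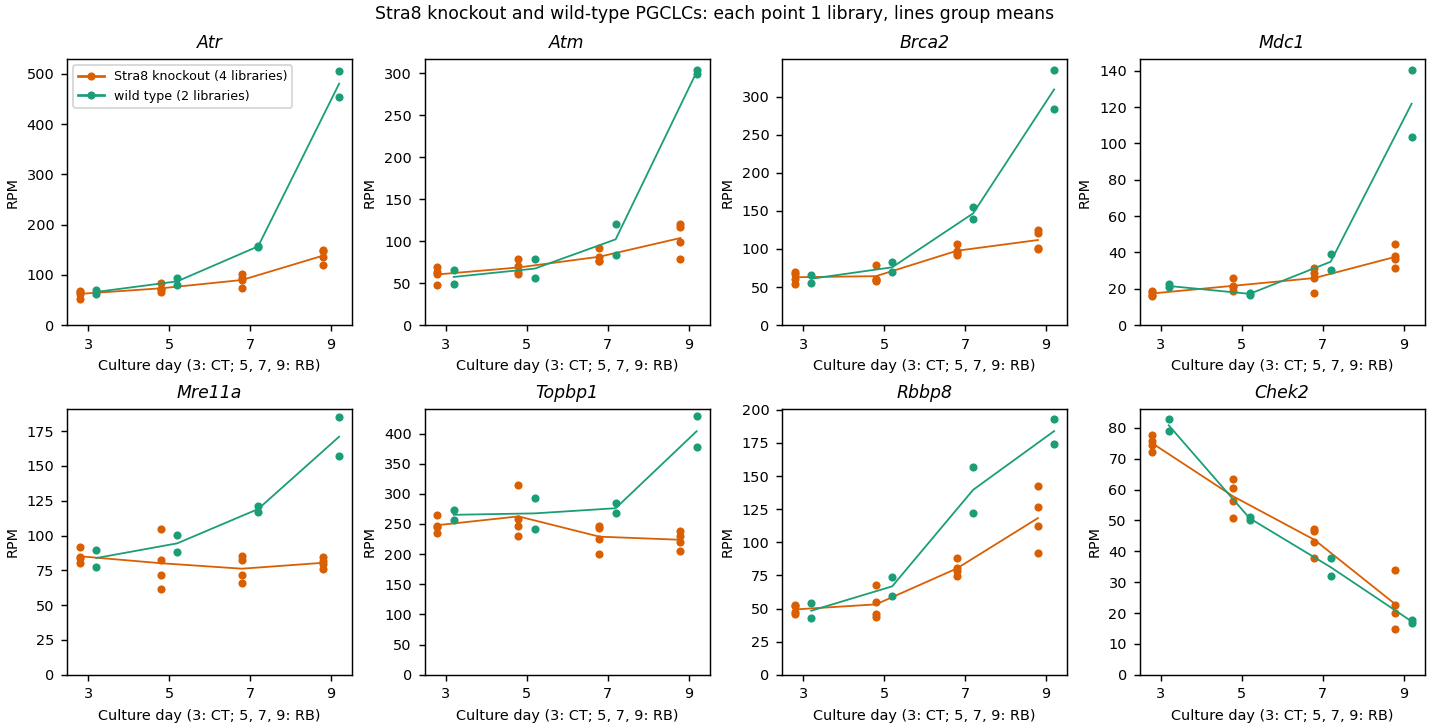
RPM of 8 repair genes in DBA/2:C57BL/6 PGCLCs at CT day 3 and RB days 5, 7 and 9, each point 1 library and each line the group means, for knockout and wild type. Atr, Atm, Brca2, Mdc1 and Mre11a part at day 9 with all knockout libraries below both wild-type libraries.

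Before RB day 9 no member passed both limits. By limma no member was called at CT day 3 (0.00819 % of all genes higher and 0.00 % lower; 1 member lower at an unadjusted p under 0.05), at RB day 5 (0.00 % and 0.0164 %; none at that level) or at RB day 7 (3.16 % and 5.57 %; none higher and 10 lower at that level). The share of all genes at the unadjusted level was not counted. At day 7 Atr and Rbbp8 passed the adjusted p but not the fold limit of 1. Atr stood at 74.1, 90.5, 101 and 93.3 RPM in knockout and 156 and 158 RPM in wild-type libraries (log2 fold change -0.81 ± 0.14, adjusted p = 0.000187), and Rbbp8 at 87.9, 78.1, 74.4 and 80.7 RPM in knockout and 122 and 157 RPM in wild-type libraries (-0.78 ± 0.17, adjusted p = 0.00195). The difference between genotypes changed from day 3 to day 9 in 5 genes, all downward (6.20 % of all genes; 8.66 % changed upward): Atr, Atm, Brca2, Mdc1 and Mre11a.

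Each genotype was also compared with its own CT day 3 cells. In knockout cells at RB day 9 against CT day 3, 4 of 35 genes were higher (25.6 % of all genes) and 1 lower (8.34 %), and in wild-type cells 11 were higher (27.8 %) and 4 lower (15.9 %). With median centring the knockout counts were 1 higher and 3 lower and the wild-type counts 6 and 4; with quantile normalization they were 3 and 3 for the knockout and 7 and 5 for the wild type. In the knockout the genes were Fancg (log2 fold change 1.47 ± 0.25), Rbbp8 (1.23 ± 0.14), Atr (1.14 ± 0.12) and Mdc1 (1.06 ± 0.18), all higher, and Chek2 (-1.73 ± 0.17), lower. In the wild type the log2 fold change was 1.58 ± 0.35 for Fancg, 1.92 ± 0.20 for Rbbp8, 2.84 ± 0.17 for Atr, 2.43 ± 0.26 for Mdc1 and -2.16 ± 0.23 for Chek2. Atr stood at 68.1, 62.9, 66.2 and 51.7 RPM in knockout and 69.5 and 62.6 RPM in wild-type libraries at CT day 3, with overlap, so its day 9 levels were above the starting level in both genotypes. Chek2 stood at 74.6, 72.2, 75.6 and 77.6 RPM in knockout and 78.9 and 82.8 RPM in wild-type libraries at CT day 3, above every day 9 library. Atm was not called in the knockout (log2 fold change 0.77 ± 0.15) and rose in wild-type cells (2.39 ± 0.21), and the same held for Brca2 (0.82 ± 0.12 in the knockout, 2.33 ± 0.17 in wild type); both genes are among the 5 whose genotype difference changed. For Rad51ap1 the log2 fold change was 0.45 ± 0.13 in the knockout and 1.21 ± 0.18 in wild type, where the call was lost with median centring (0.95), and the change of its genotype difference did not pass the fold limit. Without wild-type RB day 9 replicate 2 the wild-type counts were 7 higher and 2 lower, with H2afx (-0.62) among the calls lost. With median centring the knockout values of Rbbp8, Atr and Mdc1 were 0.85, 0.77 and 0.68, under the limit.

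The calls of the DBA/2:C57BL/6 line were set beside those of the other libraries, which they do not share. All 10 genes higher in RB than CT at day 9 in the 129S1:C57BL/6 line were higher in DBA/2:C57BL/6 wild-type cells at RB day 9 than at CT day 3, which is 90.9 % of the 11 there. Over all genes the shared part was 83.4 % of those higher in the 129S1:C57BL/6 line and 76.6 % of those higher in the wild-type cells. The wild-type log2 fold changes of Rad51b, Fancc, Mre11a and Brip1 were 0.94, 0.79, 0.75 and 0.94 with median centring. With quantile normalization they were 0.79, 0.72, 0.90 and 0.93, and with either scaling these calls were lost. Without wild-type RB day 9 replicate 2 those of Fancc, Mre11a and Brip1 were 0.71, 0.90 and 0.94. All 5 genes lower in the knockout were among those 10 (50 %), where over all genes 85.9 % of those lower in the knockout were shared, or 28.9 % of those higher in RB cells. The 5 were also among the 15 genes higher in E14.5 female than male cells (33.3 %), where over all genes 69.2 % of those lower in the knockout were shared, or 25.7 % of those higher in female cells. Of the listed genes outside the 36, 1 was higher and 2 lower in the knockout at day 9: Rpa1 (log2 fold change 1.17), and Ube2t (-1.61) and Uimc1 (-1.55). No end joining gene was called by limma. Meiotic recombination genes fell in 20 of 24 at day 9 and in 17 at day 7, and proliferation genes gave 2 higher and 1 lower of 19. Fibroblast and feeder markers summed to 341 to 465 RPM in knockout and 256 to 358 RPM in wild-type libraries at day 9, mostly as Fn1. Gonadal somatic markers summed to 33.2 to 49.8 RPM in knockout and 36.1 to 44.0 RPM in wild-type libraries, with Amh, Cyp17a1, Hsd3b1 and Nr5a1 at 0 in both. Blood and endothelium markers summed to 65.4 to 108 RPM in knockout and 22.5 to 34.4 RPM in wild-type libraries, and 9 of 10 were under 3 RPM in both, all but Pecam1. The part of these transcripts in the genotype differences was not tested.

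The single libraries give values without a replicate check. The 0R3B library of day 9 had 642 RPM of Atr, 301 RPM of Brca2, 285 RPM of Atm, 212 RPM of Mre11a and 6.33 RPM of Chek2. It lay above both RB day 9 libraries of its line in 18 of the 35 genes tested (38.5 % of all genes tested in that line), within their range in 4 and below both in 13 (41.4 %). Against the CT day 9 libraries it was above in 21 (51.7 % of all genes), within in 3 and below in 11 (39.6 %). In the C57BL/6 line 4 of 35 genes were at least 2-fold higher in c7RB than in c7CT at day 9 (15.2 % of 10725 genes) and 1 was at least 2-fold lower (5.84 %). Spike-in transcripts summed to 9.17 RPM in c7RB and 27188 RPM in c7CT, and the part of this difference in handling was not tested. Brca2 stood at 103 RPM in c7RB and 36.3 RPM in c7CT, and Rbbp8 at 85.9 RPM in c7RB and 31.0 RPM in c7CT. Palb2 stood at 29.4 RPM in c7RB and 11.8 RPM in c7CT, and Blm at 118 RPM in c7RB and 56.5 RPM in c7CT. Chek2 was lower, at 43.0 RPM in c7RB and 89.6 RPM in c7CT, and Atr, at 89.3 RPM in c7RB and 49.0 RPM in c7CT, was under 2-fold. In c0RB against c0CT at day 2 no gene of the 35 passed 2-fold either way (1.94 % and 3.86 % of 9835 genes).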

How the data were processed

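The deposited table holds signal values on an RPM scale for genes and for 96 spike-in transcripts; the authors' tools, per the submitters' processing notes, were Cufflinks 2.2.0, Bowtie 1.0.1, TopHat 1.4.1 and cutadapt 1.11, with the build mm10. Whether counting used strand is not given in the sources used here. From the steps between low values, 81.0 to 93.2 % of values per library were whole reads within 0.05 reads, too few for a test on counts, which gave the depth estimates: 2.69 to 4.44 M reads for embryo libraries, 2.52 to 4.29 M for the 129S1:C57BL/6 line, 1.08 to 15.6 M for the Stra8 experiment and 2.17 to 4.14 M for single libraries. The 0R3B library had the lowest share of whole reads, 81.0 %. Values under 0.001 RPM (2777) were set to 0. Floors cover counting error only.

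Each experiment was fitted on its own in limma 3.58.1 (R 4.3.3) with a trended prior on log2(RPM + 1), with a mean per group and genes at 5 RPM or more in at least 2 libraries: 12567 genes passed for embryo cells, 11873 for 129S1:C57BL/6 PGCLCs and 12206 for DBA/2:C57BL/6 PGCLCs. Standard errors (SE) and Benjamini-Hochberg adjusted p-values are from that fit, two-sided. The code was tested on simulated data. Alternatives were a pseudocount of 0.5, no filter, median centring, quantile normalization, a replicate block, the 3 knockout lines as replicates, and leaving out each library. The members, the other gene lists, the markers and the tests were chosen with earlier results of these data known. Up to 8 called members each way with the largest fold change were named per comparison, with partners of the same role; other members named were chosen after their values were seen. Replicate numbers were not taken as pairs in most comparisons, since only 2 share a number; in the knockout, libraries of the same number at both days are of the same line, and a block by line, added after the data were seen, moved none of its 5 calls. Sequences are from RefSeq, GRCm38.p6.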

Additional observations from a re-analysis of the deposited data

Results flagged for a closer look

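The difference between female and male cells changed from E12.5 to E15.5 in 16 genes by limma's contrast of the 2 differences (Benjamini-Hochberg adjusted). On the log2 scale the change was 4.49 for Mdc1, 3.61 for Atr, 3.36 for Topbp1, 3.12 for Brca2, 3.08 for Atm, 2.87 for Rad51b, 2.73 for Rad51ap1, 2.28 for Brip1, 2.2 for Mre11a and 2.04 for Brca1. It was smaller for Rad51d (1.79), Fancc (1.41), H2afx (1.25), Rad50 (1.18) and Rbbp8 (1.17), and it went the other way for Chek2 (-1.56). Rad50 is in this group although it was called at no single stage: it stood at 77.9 and 74.0 RPM in female and 124 and 104 RPM in male libraries at E12.5, and at 134 and 139 RPM in female and 74.9 and 107 RPM in male libraries at E15.5.

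The RB against CT difference changed from day 5 to day 9 in 12 genes by the same kind of contrast: Atr (2.99), Mdc1 (2.52), Rbbp8 (2.16), Brca2 (2.13), Atm (2.11), Fancc (1.41), Brip1 (1.33), Mre11a (1.21), Rad51b (1.20) and Rad51ap1 (1.01; 0.66 with median centring and 0.72 with quantile normalization, not called) upward, and Chek2 (-1.53) and Fancm (-1.45) downward. The knockout against wild-type difference changed from day 3 to day 9 in 5 genes: Atr (-1.70), Atm (-1.62), Brca2 (-1.51), Mdc1 (-1.37) and Mre11a (-1.10).

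In knockout cells a library stood far from the other 3 of its group in 4 of 144 groups of 4 tested by Dixon's ratio, where chance gives about 1 in 20. At RB day 5 the second SK1 library had 79.1 RPM of Brca2 and the SK2 library 31.1 RPM of Brip1, each the highest of its group. The other 2 flags are of Mlh3, from which nothing is read: 0.765 RPM at CT day 3, which is under 3 reads in that library (1.15 RPM), and 3.35 RPM at RB day 9.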

How the results depend on the processing

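Of the 149 calls of members reported, none changed direction under any alternative run. The call held in 149 with a pseudocount of 0.5, in 149 with the replicate block, in 147 without the filter, in 135 with quantile normalization and in 127 with median centring, in 15 of 16 with the 3 knockout lines as replicates, and in 452 of 496 values with a library left out. The scaling matters since the median log2 fold change of all genes was not 0 in some comparisons: 0.21 in E15.5 male against E11.5 cells, 0.22 and 0.19 in RB against CT at days 7 and 9, 0.20 in RA against CT, and 0.27 in knockout and 0.23 in wild-type cells at RB day 9 against CT day 3. Counts of members moved as follows, and the cause was not tested. In E15.5 male against E11.5 cells, 1 was higher with median centring and 14 lower with median centring or quantile normalization. In RB against CT at day 7, 1 was higher with median centring. In RA against CT at day 9, 0 were higher with either scaling, and 1 was lower with median centring and 3 with quantile normalization. In the knockout against wild type at day 9, 0 were higher without the filter, with either scaling and with the 3 lines. At RB day 9 against CT day 3 wild-type cells had 6 higher with median centring and 7 with quantile normalization, and knockout cells had 1 higher with median centring and 3 lower with either scaling.

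With each library left out in turn, members called higher ranged from 0 to 1 at E11.5 against E9.5, in RA against CT at day 9, in CT day 3 against day 0 and in knockout against wild type at day 9, from 1 to 3 in E15.5 male against E11.5 cells and from 7 to 11 in wild-type cells at day 9 against day 3. Members called lower ranged from 0 to 2 in RA against CT, from 0 to 1 in RB against RA and in knockout against wild type at day 7, from 1 to 2 in knockout cells and from 2 to 3 in wild-type cells at day 9 against day 3. The wild-type minimum of 7 and 2 is without RB day 9 replicate 2. Correlations of same-numbered libraries were -0.0839 to 0.176, and the replicate block changed no call: 15 members were again higher and 3 lower in E14.5 female than male cells. Depth limits values near 3 reads, such as those of Mlh3 and of Mdc1 in E15.5 male cells.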
